A study of Homo sapiens with 4 samples.

Results

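The genes described here are 10 of the Wnt pathway: the ligands WNT5A, WNT7A, WNT7B and WNT10A, the receptors FZD6, FZD7 and LRP6, and the secreted antagonists SFRP1, DKK1 and DKK3. They were picked by symbol and are 10 of 19577 gene rows over 4 plates. Single cells came from circular patches of MCF10A, an untransformed human mammary epithelial line that here also carried an H2B-GFP marker, in which the amount of epithelial-to-mesenchymal transition (EMT) was measured across the patch. All patches were seeded with 10000 cells on glass coated with 0.1 mg/ml fibronectin and grown for 6 days in DMEM/F12 with 5% equine serum. The medium held EGF at 20 ng/ml, insulin at 10 μg/ml, cholera toxin at 100 ng/ml and hydrocortisone at 500 ng/ml. The outer and middle cells were then tagged by light with photoactivatable dyes (40 μM), in rings 1000 to 1500 μm wide (low resolution, 2 plates) or in bands of 250 μm at the edge (high resolution, 2 plates). All patches were grown and tagged with the same agents, and each plate of 384 wells was 1 replicate. Which ring a well came from was not analysed here, so all values are over whole plates.

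Wnt proteins are secreted ligands that bind Frizzled receptors. Together with the co-receptors LRP5 and LRP6 they stabilise beta-catenin, which acts with TCF/LEF factors on target genes; other ligands, WNT5A among them, act mainly through routes that do not need beta-catenin, such as planar polarity. SFRP proteins bind the ligands themselves, while DKK1 binds LRP5 and LRP6 and blocks the beta-catenin route. In breast tissue the pathway is known for its part in stem cell maintenance, duct branching and EMT.

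SORT-seq, a plate-based method, counts transcripts near their 3′ end by unique molecular identifiers (UMIs). The plates held 11709628 to 14992348 counts, and 271 to 293 cells per plate passed the filter (2000 to 9000 features, under 40% mitochondrial counts), 1146 of 1536 wells in all. Their median was 30520 to 41248 counts per cell, deepest in high-resolution replicate 2. Levels below are counts per 10000 counts of the plate. Since 1 tag is counted per molecule, they were not divided by gene length. Of the basal markers, KRT5 was seen in 99.6% to 100% of cells, KRT17 in 92.1% to 96.9% and ITGA6 in 93.5% to 97.6%. The basal KRT14 was seen in 43.9% to 77.3% and the basal factor TP63 in only 2.58% to 4.12%. Of the luminal keratins, KRT8 was seen in 98.3% to 99.3%, KRT18 in 77.3% to 91.8% and KRT19 in only 11.68% to 23.25%. The hormone receptors ESR1 and PGR were seen in at most 3.78% and 0.344% of the cells of a plate. Of the markers of other cell types, 8 of the 11 with a row (PDGFRA, PDGFRB, COL1A2 and COL3A1 of fibroblasts, CDH5 and VWF of endothelium, PTPRC and CD3E of immune cells) were each seen in at most 1.71% of cells. The other 3 were seen in more: PECAM1 of endothelium in 28.5% to 47.1%, CD68 of macrophages in 18.6% to 27.0% and COL1A1 of fibroblasts in 17.3% to 27.7%. PECAM1 was also higher at high resolution (log2 0.55, adjusted p = 0.0447, edgeR quasi-likelihood test with Benjamini-Hochberg adjustment), and its part in the results below was not tested. By the file names, 3 plates were run on the same flow cell, and low-resolution replicate 1 was run on a different one.

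The antagonist DKK1 was seen in 92.6% to 96.2% of cells and its level went up with the EMT score of single cells, while SFRP1 was seen in 64.3% to 88.3% of cells and was higher in both high-resolution plates. Of the ligands, WNT5A was seen in 60.5% to 66.2% of cells and was higher where the EMT score was high. WNT7B was seen in 15.8% to 26.6% of cells and was lower where the score was high, with a weak relation across cells (Spearman's rho -0.245 to -0.0414). WNT7A was seen in 1 cell. FZD6, FZD7 and LRP6 differed little between plates and had little relation to the score.

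Since DKK1 and WNT5A moved together across cells, their start sites are shown first. Each run below is 300 bases on the strand of the gene, 250 before and 50 after a RefSeq start (GRCh38.p14), and 4 of the 10 members had such an entry. Capitals mark matches to TCF/LEF (the letters CTTTGAA or the letters CTTTGAT or the letters CTTTGTA or the letters CTTTGTT), TEAD (GGAATG) or AP-1 (TGANTCA) motifs, searched on both strands.
DKK1, chr10:52314031-52314330, plus strand: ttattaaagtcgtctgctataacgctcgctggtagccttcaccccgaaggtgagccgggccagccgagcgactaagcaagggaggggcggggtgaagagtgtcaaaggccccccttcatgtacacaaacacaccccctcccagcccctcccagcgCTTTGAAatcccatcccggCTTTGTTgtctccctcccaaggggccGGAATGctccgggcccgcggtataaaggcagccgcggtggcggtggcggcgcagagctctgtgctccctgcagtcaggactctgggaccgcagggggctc
WNT5A, upstream start, chr3:55487257-55487556, minus strand: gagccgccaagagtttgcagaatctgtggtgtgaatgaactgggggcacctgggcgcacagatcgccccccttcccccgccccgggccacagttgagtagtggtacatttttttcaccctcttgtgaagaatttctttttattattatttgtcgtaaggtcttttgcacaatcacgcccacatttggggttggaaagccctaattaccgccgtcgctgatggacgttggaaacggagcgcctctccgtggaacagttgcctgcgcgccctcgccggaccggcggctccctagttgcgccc
WNT5A, downstream start, chr3:55481349-55481648, minus strand: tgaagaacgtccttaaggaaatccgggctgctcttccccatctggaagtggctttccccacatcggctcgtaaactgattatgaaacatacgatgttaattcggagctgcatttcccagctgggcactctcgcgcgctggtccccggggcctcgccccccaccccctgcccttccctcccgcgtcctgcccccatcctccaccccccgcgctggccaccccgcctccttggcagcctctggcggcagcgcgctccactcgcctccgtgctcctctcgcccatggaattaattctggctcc
The DKK1 window held TCF/LEF letters at bases 156 to 162 and 175 to 181 and TEAD letters at bases 201 to 206, none of them overlapping, counted from 1 at the 5′ end. Both WNT5A windows held no match to any of the 3 motifs. Of 34796 windows of the same length, 13.8% held a TCF/LEF match, 14% a TEAD match and 7.73% an AP-1 match. The matches describe these letters only; no binding was measured.

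WNT5A (chromosome 3, 55465715 to 55490539, minus strand, in the GENCODE annotation of GRCh38) is the best known ligand of the routes without beta-catenin. Its level was 0.582 and 0.541 counts per 10000 in low-resolution replicates 1 and 2, and 0.440 and 0.446 in the high-resolution replicates. Both high-resolution plates were thus the lower ones, but the difference (log2 -0.31, SE 0.12) did not pass the test (adjusted p = 0.110, edgeR quasi-likelihood test with Benjamini-Hochberg adjustment over 12437 genes). A UMI was seen in 60.5%, 60.5%, 60.5% and 66.2% of cells in the same order of plates. With each cell thinned to 10000 UMIs, which removes differences in depth, the share was 30.6% to 36.6%. Cells with a UMI held a median of 2 and at most 21 counts, and the highest 10% of cells held 40.8% to 43.2% of them.

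WNT7B (chromosome 22, 45920362 to 45977129, minus strand), a ligand that can signal through beta-catenin, was at 0.0980 and 0.102 counts per 10000 at low resolution and at 0.0446 and 0.0709 at high resolution. The 2 experiments did not overlap, yet the difference (log2 -0.75, SE 0.24) fell short of the threshold (edgeR adjusted p = 0.0631). It passed without the filter on low counts (edgeR adjusted p = 0.0144), with the replicate number as a block (0.0180) and without the mitochondrial limit (0.0460). By DESeq2 it did not pass (adjusted p = 0.185). With 1 plate left out, the log2 difference of WNT7B was -1.11 without high-resolution replicate 2 (edgeR adjusted p = 0.0149), -0.46 without high-resolution replicate 1 (0.387), and -0.81 and -0.67 without low-resolution replicates 1 and 2 (0.112 and 0.162). WNT7B was seen in 22.0%, 26.6%, 15.8% and 23.2% of cells, low-resolution plates first. WNT10A (chromosome 2, 218880363 to 218899581, plus strand), another ligand of the beta-catenin route, gave 11, 6, 8 and 6 counts per plate in the same order, from 29 of 1146 cells. This is 2.05% to 3.44% of cells, and WNT10A was not tested between the experiments. WNT7A (chromosome 3, 13816258 to 13880121, minus strand) gave 1 count in 1 cell of high-resolution replicate 1. The other plates had 0 of 291, 271 and 293 cells, which allows a share of cells with a UMI of up to 1.03%, 1.11% and 1.02% by a floor of 3 counts, or 1.26%, 1.35% and 1.25% by the exact binomial 95% interval. Neither WNT7A nor WNT10A passed the filter on low counts.

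Among the receptors, FZD6 (chromosome 8, 103298433 to 103332866, plus strand) was at 0.467, 0.379, 0.382 and 0.392 counts per 10000 and was seen in 70.8%, 67.9%, 69.8% and 72.0% of cells. FZD7 (chromosome 2, 202034587 to 202038445, plus strand), a Frizzled often linked to basal breast cells, was at 0.0728, 0.0822, 0.0621 and 0.0753 and was seen in 20.3% to 28.3% of cells. The co-receptor LRP6 (chromosome 12, 12116025 to 12267012, minus strand) was at 0.140, 0.121, 0.132 and 0.107 and was seen in 31.4% to 35.4%. In each of the 3 receptors the experiments overlapped. Their log2 differences, high over low resolution, were -0.09 (SE 0.13), -0.14 (SE 0.22) and -0.10 (SE 0.19), none of which passed the test (edgeR adjusted p = 0.707, 0.739 and 0.789). FZD6 thinned to 10000 UMIs was seen in 30.6% to 37.0% of cells, FZD7 in 5.63% to 8.36% and LRP6 in 8.93% to 16.7%. The gene BCL2L14, which overlaps LRP6 on the opposite strand, gave 0 counts in all 4 plates.

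SFRP1 (chromosome 8, 41261958 to 41309497, minus strand) binds Wnt ligands and keeps them from their receptors. Its level was 0.971 and 1.07 counts per 10000 at low resolution and 2.44 and 2.17 at high resolution. The experiments did not overlap, and SFRP1 rose 2.32-fold (log2 1.21, SE 0.12, edgeR adjusted p = 0.000141). It was seen in 64.3% and 69.4% of low-resolution cells and in 88.3% and 87.7% of high-resolution cells. At 10000 UMIs per cell the shares were 41.1% and 43.7% against 66.9% and 64.6%, and the experiments were still apart at equal depth. Within cells with a UMI the median was 2 and 3 counts at low resolution and 6 and 7 at high resolution. The highest 10% of cells held 55.6% and 52.8% of the counts at low resolution and 40.6% and 38.7% at high resolution, so the counts were spread over more cells in the plates with more SFRP1. With 2 plates against 2, an exact permutation test of a single value cannot go below a two-sided p of 0.333.

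DKK1 (chromosome 10, 52314296 to 52318042, plus strand), the antagonist of LRP5 and LRP6, was at 6.32 and 4.59 counts per 10000 at low resolution and at 3.97 and 3.85 at high resolution. It was seen in 95.2%, 92.6%, 94.5% and 96.2% of cells, with a median of 11 to 17 counts and up to 154 in a cell with a UMI. The experiments did not overlap and DKK1 fell by 0.44 on the log2 scale (SE 0.13, edgeR adjusted p = 0.0424). Low-resolution replicate 1 alone stood apart from the other 3 plates. Without it the remaining plates share 1 flow cell, and the difference was -0.23 on the log2 scale (edgeR adjusted p = 0.284). The antisense gene PRKG1-AS1, which overlaps DKK1, gave at most 4 counts in a plate. DKK3 (chromosome 11, 11963106 to 12009769, minus strand), a divergent member of the DKK family, gave 3 and 8 counts at low resolution and 29 and 21 at high resolution. It was seen in 1.03%, 2.21%, 8.25% and 4.78% of cells and rose (log2 1.89, SE 0.54, edgeR adjusted p = 0.0388), but the call was lost without low-resolution replicate 1 (log2 1.34, edgeR adjusted p = 0.20) and without high-resolution replicate 1 (log2 1.51, 0.285). Without low-resolution replicate 2 the DKK3 difference was log2 2.77 (edgeR adjusted p = 0.0425).

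**Figure D1:**
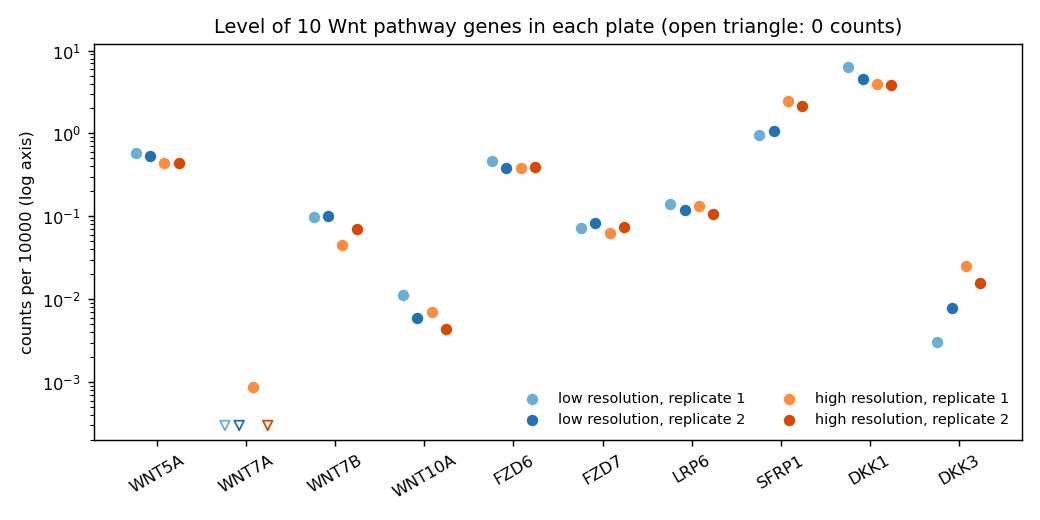
Counts per 10000 on a log axis for each of the 10 genes, 1 point per plate (blue, low resolution; orange, high resolution; open triangles, plates with 0 counts). SFRP1 lay at 0.971 and 1.07 at low against 2.44 and 2.17 at high resolution, DKK1 was highest in low-resolution replicate 1 (6.32), and the 3 receptors overlapped between the experiments.

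In all, 3 of the 8 members tested passed, SFRP1 and DKK3 higher and DKK1 lower at high resolution. Over all 12437 genes tested, 12.4% passed, 6.26% of them higher and 6.18% lower (percent of genes tested). In counts per 10000, both high-resolution plates lay above both low-resolution plates for SFRP1 and DKK3 and below for WNT5A, WNT7B and DKK1, against 25.6% and 32.1% of all genes. Without low-resolution replicate 1 only SFRP1 passed. The p-values measure the spread between plates, estimated with the help of the other genes since each experiment had 2 plates. They do not cover what else differed between the experiments, such as which rings the sorted cells came from. Such differences cannot be told apart from the tagging resolution. Of the 4 EMT markers, 3 moved with the same contrast: E-cadherin (CDH1) fell (log2 -0.68, edgeR adjusted p = 0.00321) while vimentin (VIM) and fibronectin (FN1) rose (log2 0.94 and 0.77, edgeR adjusted p = 0.00117 and 0.00127). The epithelial marker EPCAM did not pass (log2 -0.11, edgeR adjusted p = 0.566). When each plate was split into tertiles of the EMT score, SFRP1 was higher at high resolution in the lower, middle and upper tertile (log2 1.42, 1.20 and 0.97, edgeR adjusted p = 0.000266, 0.000317 and 0.00262). The tertiles were cut within each plate and the score was fitted per experiment, so a tertile does not hold cells of the same EMT state in all plates. In the middle tertile, FN1 was at 1.72 and 1.24 counts per 10000 at low and 8.19 and 6.72 at high resolution. CDH1 in that tertile was at 0.773 and 0.791 against 0.308 and 0.359. Whether SFRP1 differs at equal EMT state was not tested.

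For cell interactions the study set a minimum of 20% of a region's cells. Here the same percentage was applied to cells with a UMI in a whole plate, which is another quantity. By it 6 members passed in every plate: WNT5A, FZD6, FZD7, LRP6, SFRP1 and DKK1, against 41% of all 19577 genes. WNT7B missed it only in high-resolution replicate 1. At 10000 UMIs per cell 4 members remained, without FZD7 and LRP6. These shares follow depth: a gene seen in few cells of shallow depth may be present below detection. A cell with a UMI of at least 1 of the 3 antagonists made up 97.3% to 98.3% of each plate, and at least 1 of the 4 ligands was seen in 68.4% to 73.8%.

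**Figure D2:**
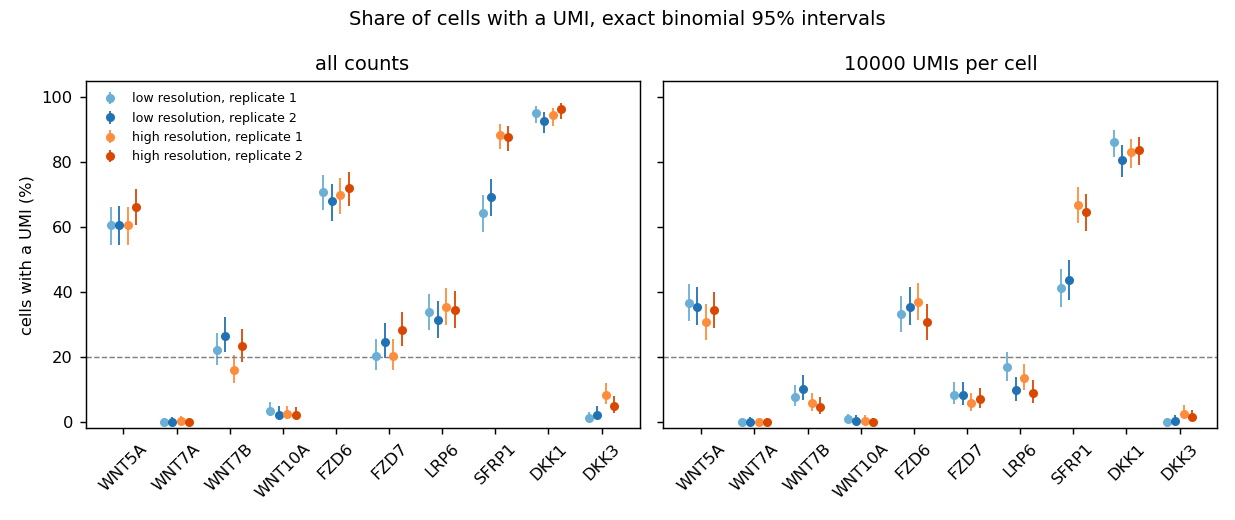
Percent of cells with a UMI for each gene and plate, with all counts (left) and with each cell thinned to 10000 UMIs (right); bars are exact binomial 95% intervals, which cover counting error only, and the dashed line is 20%. The SFRP1 shares of the 2 experiments stayed apart after thinning (41.1% and 43.7% against 66.9% and 64.6%), while LRP6 and FZD7 dropped below the line.

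To set the members against EMT, each cell was given a score from gene lists of epithelial (E) and mesenchymal (M) genes by gene set variation analysis (GSVA), the EMT score being M minus E. Of the lists, 64 of 65 E genes and 102 of 115 M genes were used; SFRP1, which is on the M list, was left out, and no other member is on either. The markers CDH1 and EPCAM are on the E list and VIM and FN1 on the M list. The rho of a member with these markers is thus not independent of its rho with the score. Correlations are Spearman's rho across the cells of a plate. They are descriptions without p-values, since the cells of a plate share its library. A gene was said to follow the score if rho was at least 0.3 in size with 1 sign in all 4 plates.

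DKK1 was the only member that followed the score, with rho of 0.393 and 0.495 at low resolution and 0.567 and 0.457 at high resolution. Of 7960 genes outside the lists with a UMI in 20% of cells, 2.3% followed it upward and 2.4% downward, and 0.942% had a higher mean rho than DKK1. From the lower to the upper tertile of the score, DKK1 went from 4.29 to 9.87 and from 2.11 to 8.51 counts per 10000 at low resolution, and from 1.86 to 6.19 and from 2.06 to 5.88 at high resolution. The upper tertile was the highest in 4 of 4 plates, on average 3.06-fold above the lower one (log2 1.61 ± 0.34, SD, n = 4 plates). DKK1 had a negative rho with the epithelial markers CDH1 (mean -0.392) and EPCAM (-0.398) and a positive rho with VIM (0.337) and FN1 (0.413).

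WNT5A had rho of 0.286, 0.347, 0.359 and 0.374 with the score, just under the limit in low-resolution replicate 1. Its upper tertile was at 1.06, 0.893, 0.648 and 0.692 counts per 10000 and its lower tertile at 0.399, 0.376, 0.225 and 0.225, with low-resolution plates first. This is 2.73-fold on average (log2 1.45 ± 0.16, SD, n = 4 plates), with the upper tertile highest in each plate. The middle tertile was near the lower one at low resolution (0.297 and 0.381) and between the others at high resolution (0.489 and 0.421). WNT5A had its strongest relation to FN1 (mean rho 0.466), and its mean rho was -0.398 with EPCAM, -0.297 with CDH1 and 0.204 with VIM. Its rho with the score of S phase was -0.216 on average, against -0.100 for DKK1.

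WNT7B went the other way, with a rho of -0.134, -0.245, -0.146 and -0.0414 with the score. In its lower tertile the level was 0.148, 0.141, 0.0619 and 0.0980 counts per 10000, and in the upper tertile 0.0620, 0.0501, 0.0266 and 0.0558. The upper tertile was the lower one in 4 of 4 plates (log2 -1.20 ± 0.28, SD, n = 4 plates). It held only 20, 16, 10 and 25 counts of WNT7B, low-resolution plates first. Of the 250 cells with WNT7B, 44.8% were in the lower and 23.2% in the upper tertile. WNT10A was seen in 16 cells of the lower, 5 of the middle and 8 of the upper tertile, too few for a trend, and its mean rho changed from -0.0806 to 0.0304 at 10000 UMIs per cell. DKK3 was seen mainly in cells with a high score: 40 of its 47 cells were in the upper tertile, 2, 6, 20 and 12 of them per plate, against 1 cell in the lower tertile. Its rho with the score was 0.0810, 0.191, 0.287 and 0.242, and at 10000 UMIs per cell the mean was 0.0824.

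**Figure D3:**
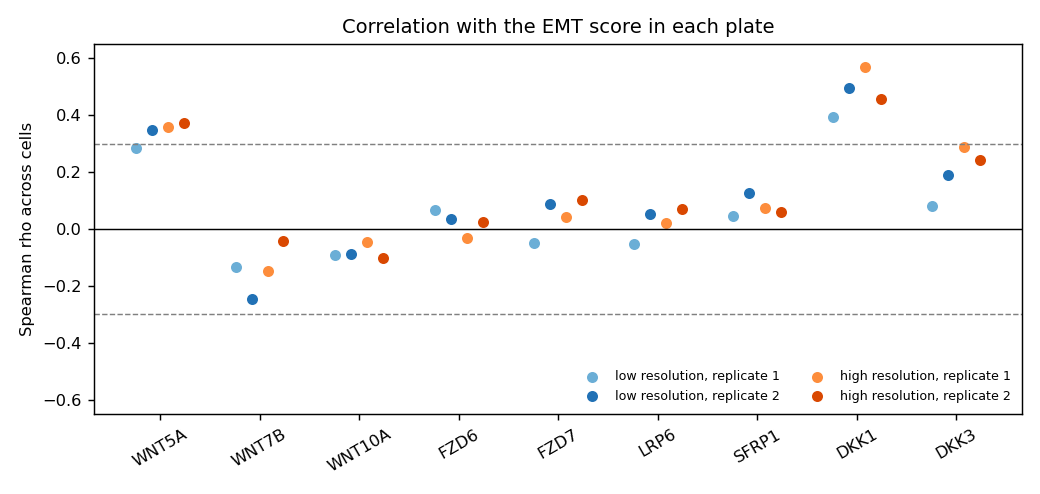
Spearman's rho across cells between each gene and the EMT score, 1 point per plate; dashed lines mark 0.3 in either direction, and WNT7A, seen in 1 cell, is not drawn. DKK1 lay above the upper line in all 4 plates (0.393 to 0.567), WNT5A in 3 of them, and FZD6, FZD7 and LRP6 had points on both sides of 0.

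SFRP1 had little monotone relation to the score, with rho of 0.0462, 0.127, 0.0747 and 0.0588. Its level was highest in the middle tertile of each plate. In the low-resolution plates it was 0.843, 1.16 and 0.947 counts per 10000 in the lower, middle and upper tertile of replicate 1 and 0.670, 1.59 and 1.02 in replicate 2. In the high-resolution plates it was 2.01, 3.29 and 2.19 in replicate 1 and 1.93, 2.95 and 1.62 in replicate 2. The share of cells with SFRP1 was highest in the middle tertile only in low-resolution replicate 2 (74.4%). It was highest in the upper tertile in low-resolution replicate 1 (68.0%) and in high-resolution replicates 1 and 2 (92.8% and 93.8%). SFRP1 was also set against other measures of a cell: its mean rho was 0.258 with the score of S phase, 0.253 with that of G2/M phase, 0.206 with the counts per cell and -0.199 with the mitochondrial share, each with the same sign in all 4 plates. The part of these in its level was not tested.

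FZD6, FZD7 and LRP6 had mean rho of 0.0239, 0.0456 and 0.0223 with the score, and each had 1 plate of the opposite sign. The median over the 7960 genes was 0.0163. Over the members, rho was above 0 in all 4 plates for WNT5A, SFRP1, DKK1 and DKK3 and below 0 in all 4 for WNT7B and WNT10A, against 34.1% and 24.3% of the 7960 genes. WNT7B, WNT10A and DKK3 are too sparse to be among the 7960, so for them this is a comparison with better detected genes. FZD6 had a mean rho of 0.124 with the score of G2/M phase and 0.113 with that of S phase, positive in 4 of 4 plates for both. Its mean rho was of similar size with the counts per cell (0.097) and the mitochondrial share (-0.097), each with 1 sign in all 4 plates. The EMT score itself had a rho of 0.172 to 0.272 with the G2/M score and of -0.470 to -0.294 with the mitochondrial share. DKK1 and the mitochondrial share had a mean rho of -0.228, and the part of that share in the relation of DKK1 to the score was not tested.

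**Figure D4:**
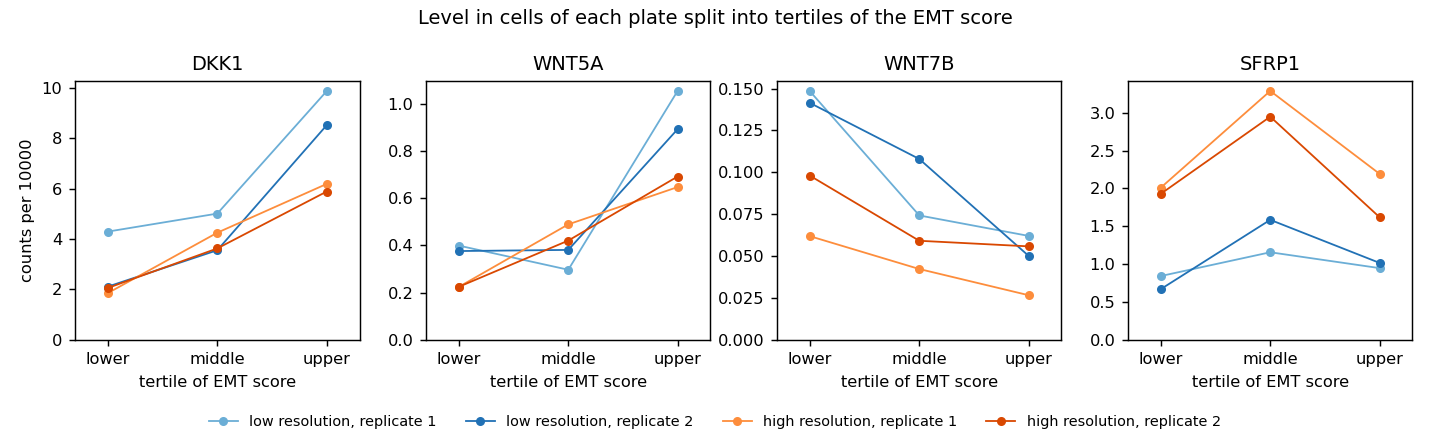
Counts per 10000 of DKK1, WNT5A, WNT7B and SFRP1 in the lower, middle and upper tertile of cells by EMT score, 1 line per plate (blue, low resolution; orange, high resolution; linear axes from 0 that differ between panels). DKK1 and WNT5A were highest in the upper tertile of each plate, WNT7B was highest in the lower, and SFRP1 was highest in the middle (1.16, 1.59, 3.29 and 2.95).

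Of the 45 pairs of members, WNT5A and DKK1 was the only one with rho of at least 0.2 in all 4 plates (0.248, 0.254, 0.268 and 0.303). At 10000 UMIs per cell its mean rho was 0.194, and given the EMT score it was 0.125, so no pair reached 0.2 in all plates under either. Both genes were seen together in 343 thinned cells, where independent shares give 323.1. The antagonists SFRP1 and DKK1 were not related (mean rho -0.0237), although both were seen in 62.2% and 64.6% of low-resolution and 84.9% and 85.7% of high-resolution cells. WNT5A and SFRP1 had rho of 0.00290, -0.0329, -0.0534 and -0.209, negative mainly in high-resolution replicate 2. WNT7B and DKK1 had a negative rho in all 4 plates (-0.135, -0.122, -0.0447 and -0.0784). Their mean rho was -0.0227 at 10000 UMIs per cell and -0.0280 given the EMT score. They were seen together in 63 thinned cells, where independent shares give 64.9.

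**Figure D5:**
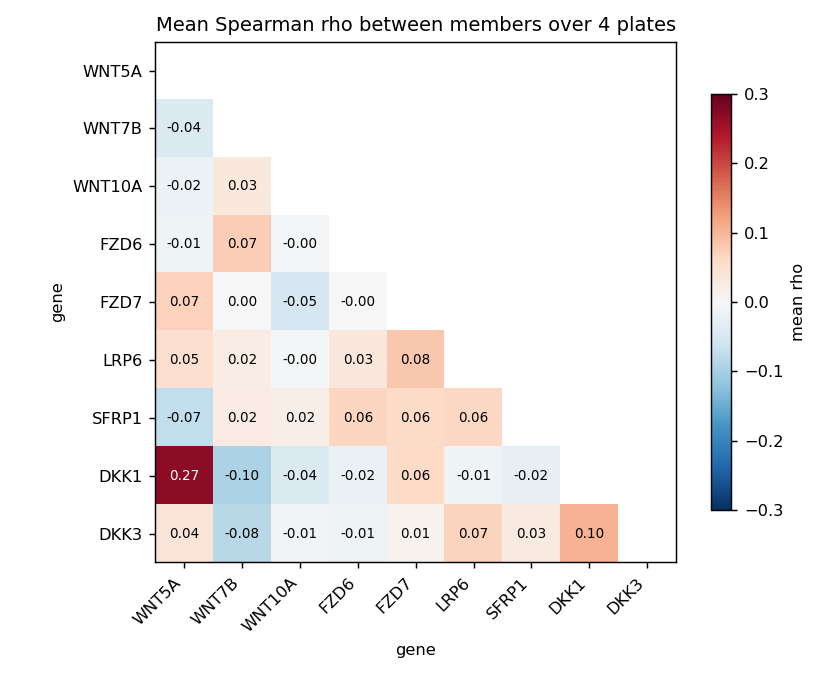
Mean Spearman's rho over the 4 plates for each pair of 9 members (WNT7A, seen in 1 cell, is not drawn), on a colour scale from -0.3 (blue) to 0.3 (red). The pair of WNT5A and DKK1 stands out at 0.27, followed by DKK1 and DKK3 at 0.10. The plates differed for DKK1 and DKK3: -0.0437 and 0.0908 at low and 0.213 and 0.160 at high resolution. Given the EMT score, the mean of that pair was 0.00857. The receptors reach at most 0.08 with each other.

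Among the receptors, FZD6 and FZD7 had a mean rho of -0.000155 and FZD6 and LRP6 one of 0.0350. FZD7 and LRP6 had a positive rho in all 4 plates (0.102, 0.0979, 0.0312 and 0.0891), with a mean of 0.0801 that was 0.0292 at 10000 UMIs per cell. A Frizzled receptor of the 2 together with LRP6 was seen in 26.2% to 29.2% of cells with all counts and in 3.44% to 7.32% at 10000 UMIs. A ligand of the 4 and a Frizzled receptor of the 2 were seen in the same cell in 53.3% to 59.0% of cells with all counts and in 13.0% to 20.1% at 10000 UMIs. Cells with WNT5A but no WNT7B made up 46.9% to 51.9% of a plate, those with WNT7B but no WNT5A 6.48% to 12.9%, and those with both 8.59% to 16.7%.

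The genes most like each member across cells were taken as the 3 with the highest mean rho over the 4 plates, among 8031 genes with a UMI in 20% of cells. For WNT5A these were FN1 (0.466), the matrix protein fibulin-1 (FBLN1, 0.425) and the secreted protease HTRA1 (0.396). For DKK1 they were the protease inhibitor TIMP1 (0.436), the sphingosine phosphate receptor S1PR3 (0.423) and FN1 (0.413). For SFRP1 they were annexin A3 (ANXA3, 0.420), the actin bundler fascin (FSCN1, 0.418) and the keratin KRT81 (0.380). The receptors had no close neighbour: the highest mean rho was 0.156 for FZD6 (with the replication helicase MCM7), 0.132 for FZD7 (with the adhesion molecule ALCAM) and 0.147 for LRP6 (with PNN). Such weak values in sparse counts are given for completeness only.

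The other Wnt genes were taken from 10 lists (ligands, Frizzled receptors, co-receptors, ligand processing, antagonists, the R-spondin axis, cytoplasmic signalling, nuclear factors, beta-catenin targets and planar polarity). Of 85 such genes, 71 had a row, and 29 were seen in 20% of cells or more in each plate. Of these 29, WLS, which carries Wnt proteins to the cell surface, followed the EMT score upward (rho 0.357, 0.406, 0.391 and 0.408), and none followed it downward. Of the 7960 genes, 2.3% followed it upward and 2.4% downward. The median of the mean rho of the 29 was 0.00604. CTNNB1, the gene of beta-catenin, had rho of 0.323, 0.273, 0.277 and 0.476, under the limit in 2 plates. The cytoplasmic genes of higher level, CSNK1A1, GSK3A and GSK3B, had a mean rho of 0.111, 0.0512 and 0.0139. Of 44 tested between the experiments, 1 was higher and 3 were lower at high resolution, with a median log2 difference of -0.02, the same as over all genes tested. Over all genes tested, 6.26% were higher and 6.18% lower.

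The receptor FZD2 was the one that rose (0.0465 and 0.0664 against 0.135 and 0.0968 counts per 10000, log2 1.06, edgeR adjusted p = 0.0189). Those that fell were the planar polarity genes CELSR2 (log2 -0.87, edgeR adjusted p = 0.00837) and PRICKLE1 (log2 -0.89, edgeR adjusted p = 0.00744), and NKD1 (log2 -2.34, edgeR adjusted p = 0.0205). NKD1 is an inhibitor of the pathway that is itself a target of beta-catenin. Its level was 0.0182 and 0.0119 counts per 10000 at low and 0.0035 and 0.0022 at high resolution. It was sparse, with a UMI in 1.02% to 5.15% of the cells of a plate. Among the ligands outside the 10 members, the highest mean level was that of WNT5B (0.0102 counts per 10000, 1.48% to 5.46% of cells). Of the beta-catenin targets, CCND1 was seen in 87.8% to 94.5% of cells, MYC in 51.3% to 68.9%, TCF7 in 24.4% to 34.7%, ZNRF3 in 15.1% to 21.2% and LEF1 in 5.90% to 12.6%. AXIN2, LGR5 and SP5 were each seen in at most 0.738% of cells of a plate. The co-receptors ROR1 and RYK, which bind WNT5A, were at 0.386 and 0.262 counts per 10000 on average, while ROR2 was seen in at most 1.11% of cells.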

How the data were processed

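Single MCF10A cells of patches tagged at low or at high resolution were sequenced by SORT-seq, 2 plates each and 1 plate per replicate. The labels do not give the number of patches per plate. The authors deposited expected counts per gene and well: UMI numbers adjusted for repeated draws of the same UMI, unscaled and with all wells kept. The submitters' processing notes name STAR 2.7.3a, Seurat 4 and hg38. Inverting this adjustment with 4096 UMI sequences gave whole UMIs (tolerance 1e-06) for all 7245730 values above 0, and these were used for thinning. The adjustment adds most to abundant genes such as DKK1.

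The 10 members, the other gene lists, the tests and the rule for named genes were chosen with earlier results of these data known. Named genes were the members, CDH1, EPCAM, VIM and FN1, and the 3 genes most like each member seen in 20% of cells of every plate. In each Wnt list, the genes that followed the EMT score or passed the test were also named. Up to 4 of the highest level in each list could be named, and not all of these are given. Cell type markers came from lists fixed with the design. All basal, luminal and hormone receptor markers are given, and all with a row for other cells. AXIN2, LGR5, SP5, LEF1 and ROR2 were added after their values were seen. CTNNB1 is named by its level, and so are the cytoplasmic genes of higher level given beside it. The study's stated limits on features and mitochondrial share were used; they left 562 low- and 584 high-resolution cells, fewer than the study analysed, and without the mitochondrial limit 321 to 334 cells per plate were still fewer in each experiment. Plates share the same well barcodes by design, so barcodes were not compared between them, and doublets were not called beyond the limit of 9000 features.

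Spike-ins were left out before counts were log-normalized to 10000 per cell. GSVA (Gaussian kernel, fitted per experiment) was written for this work in Python 3.11.15 with numpy 2.4.6, and tertiles of the score were cut within plates. Older symbols were matched only where they name no other current gene. Plates were compared with edgeR 4.0.16 in R 4.3.3 (quasi-likelihood test, TMM, filterByExpr, Benjamini-Hochberg adjustment over 12437 genes, threshold 0.05) on rounded plate sums of the expected counts; DESeq2 1.42.0 was run as an alternative. Share intervals are exact binomial (Clopper-Pearson, 95%); where a share was 0, 3 counts set the upper limit. In simulated counts with 200 changed genes of 12437, edgeR recovered 80.2% of the 2-fold changes at a dispersion of 0.011, with 9 false calls, and 23.6% at 0.05, with 3. The score had a rho of 0.959 with a simulated gradient at the depths of 1 plate, and 50% of 200 genes that changed with it reached a rho of 0.3, so the limit misses genes.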

Additional observations from a re-analysis of the deposited data

How the results depend on the processing

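Under the alternatives for the 4 summary counts, 30 values stayed within 1.5 times the reported count and 8 did not. A count could stay the same while the genes in it changed. Without the mitochondrial limit 3 members were called, with WNT7B (log2 -0.75, edgeR adjusted p = 0.0460) in place of DKK1. Members called between the experiments numbered 3, and 1 to 3 with 1 plate left out; SFRP1 passed in each, and the lone plate of a group was taken to vary like the other group. Within the middle tertile of the EMT score, an alternative chosen after seeing the data, 1 passed (SFRP1), and 2 passed in the lower and in the upper tertile. DESeq2 called 2, SFRP1 and DKK1. DKK1 kept a similar difference but did not pass without the mitochondrial limit (log2 -0.41, edgeR adjusted p = 0.0582) or without high-resolution replicate 2 (log2 -0.40, 0.111). WNT5A passed in the lower tertile (log2 -0.75, edgeR adjusted p = 0.0165), was the other way in the middle (0.43, 0.209) and did not pass in the upper (-0.53, 0.0502). The tertiles were not matched in EMT state between the experiments, as the FN1 and CDH1 levels given above show for the middle one. The receptors changed sign without passing: with 1 plate left out, FZD6 ranged from log2 -0.19 to 0.0317, FZD7 from -0.27 to 0.00199 and LRP6 from -0.25 to 0.068, above 0 without low-resolution replicate 1, low-resolution replicate 2 and high-resolution replicate 2. FZD6 was at 0.0052 in the lower tertile and FZD7 at 0.16 in the middle. Genes called numbered 1547, against 982 without low-resolution replicate 1, 987 without high-resolution replicate 2, 1004 in the middle tertile and 559 in the upper.

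Same-numbered plates did not deviate together (correlation -0.0238 over genes), so the numbers were not taken as pairs. With the replicate number as a block, 4 members (WNT7B in addition) and 2023 genes passed.

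Members following the EMT score numbered 1, and 2 (WNT5A in addition) with a mean z-score difference as the score, given the cell cycle scores, or with a limit of 0.2; with 1 plate left out they numbered 1 to 2. Pairs numbered 1, and 0 at 10000 UMIs per cell or given the EMT score. At 10000 UMIs the mean rho with the score was 0.403 for DKK1, 0.258 for WNT5A and 0.0824 for DKK3. The cause of these changes was not tested. Depth limits most what can be said of WNT7A, WNT10A and DKK3, with at most 29 counts in a plate.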
